A study of Mus musculus with 64 samples.

Results

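The 9 genes described here make, sense or end the adenosine and cyclic AMP (cAMP) signal in T cells, and they were taken by name out of 55809 annotated genes. Nt5e, Entpd1, Adora2a, Ada and Adk handle adenosine, and Pde3b, Pde4b, Pde4d and Pde7a encode enzymes that hydrolyse cAMP. Their RNA was followed in mouse regulatory T (Treg) cells in which the transcription factor Foxp3 was degraded, and in cells in which Foxp3 was switched on.

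Extracellular ATP is cut to AMP by CD39, the product of Entpd1, and AMP is cut to adenosine by CD73, the product of Nt5e. Adenosine acts on the receptor made from Adora2a, which raises cAMP through a Gs protein, and is removed by adenosine deaminase (Ada) or adenosine kinase (Adk). Phosphodiesterases then lower cAMP, and Treg cells are known for a high cAMP content, for CD39 and CD73 on their surface, and for repression of Pde3b by Foxp3.

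The data are 64 bulk RNA-seq libraries from 28 groups. In one experiment, every mouse had a Foxp3-AID allele, in which Foxp3 bears an auxin-inducible degron and the locus also makes ZsGreen and Cre. Every mouse was given 5-ph-IAA for 7 days. The mice differed at ROSA26, either ROSA26-WT or ROSA26-TIR1(F74G), a plant ligase adaptor that is expressed after Cre removes a stop cassette and marks the fusion protein for destruction. Adult heterozygous females gave thymic CD73-negative Treg cells and active (CD44-high) Treg cells with 3 libraries per genotype, and infants treated from shortly after birth gave 4 and 4. By the study's reporting summary the infants were males with a single Foxp3 allele, so unlike the adults they held no Treg cells with an untagged Foxp3 allele. In the reversible experiment, adult heterozygous females carried Foxp3-LSL, an allele with a Thy1.1 reporter and a stop cassette before Foxp3-GFP. MinusFoxp3 cells (Foxp3-LSLCD4-WT) expressed Thy1.1 from this allele and no Foxp3 protein, and plusFoxp3 cells (Foxp3-LSLCD4-CreERT2) had the cassette removed by a Cre that is active in Cd4-expressing cells after 1 dose of 4-hydroxytamoxifen (4-OHT). Resting and active cells were collected at days 0, 3, 7, 14 and 28 with 2 libraries per group, and day 0 cells of both genotypes were untreated. Treg cells from Foxp3GFP mice, whose Foxp3 allele has no stop cassette, gave 2 libraries per state. In the heterozygous adult females the other X chromosome supplies Treg cells with normal Foxp3, so such cells remained in these hosts.

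Library totals ran from 27753211 to 57419138 read pairs. Levels are given as CPM, read pairs scaled to a library total of 1000000, and, between genes, as CPM per kilobase of exon. Foxp3 mRNA was at 44.3 to 81.5 CPM in the minusFoxp3 and untreated libraries, at 426 to 615 CPM in plusFoxp3 libraries of days 3 to 28, and higher in GFP Treg cells (635 to 817 CPM). In the adult degron libraries it was at 144 to 168 CPM in thymic TIR1 and 144 to 181 CPM in thymic WT cells, and at 76.7 to 93.4 CPM in active TIR1 and 100 to 127 CPM in active WT cells. T cell and Treg marker genes were present in every group, and none was at 0 in all libraries of a group. The records of the 12 adult degron files conflict, because the library name in each header belongs to the other genotype than the recorded sample, and files were assigned by that name. Every adult sign between TIR1 and WT turns round under the recorded assignment. For infants the title and the genotype field disagree, so these groups carry the names titled TIR1 and titled WT, with an unsettled direction. Infant titled WT replicate 4, resting plusFoxp3 replicate 1 of day 0 and active minusFoxp3 replicate 1 of day 7 stood apart from their groups. In bulk samples fewer cells of a type and less RNA per cell cannot be told apart.

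All 9 genes are protein-coding, and positions are in GRCm39. Of the adenosine genes, Nt5e lies on chromosome 9 from 88209250 to 88254145. Entpd1 is on chromosome 19 from 40600810 to 40730046. Adora2a is on chromosome 10 from 75152711 to 75170618. Ada is on chromosome 2 from 163568504 to 163592159, and Adk on chromosome 14 from 21102642 to 21498637. The phosphodiesterase genes are on chromosome 7 from 114014516 to 114138486 (Pde3b), chromosome 4 from 101944740 to 102464456 (Pde4b), chromosome 13 from 108586482 to 110089995 (Pde4d) and chromosome 3 from 19277272 to 19365486 (Pde7a). Per kilobase, Nt5e was the highest of the 9 in active minusFoxp3 cells of day 0, at 137 CPM per kilobase, followed by Pde4b at 30.2 and Adk at 12.7. Ada was the lowest there, at 1.95 CPM per kilobase. In active GFP Treg cells Nt5e again led with 71.3 CPM per kilobase, Adora2a stood at 18.9, Pde4b at 18.4, and Pde3b was last at 0.123.

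Promoter sequence from RefSeq (GRCm38.p6, 250 bases before to 50 after a start) was at hand for 6 of the 9 members in 11 promoters, all of which were found once in GRCm39. Entries for Adora2a, Pde3b and Pde7a were not used here. The short core of the cAMP response element, TGACG on either strand, is shown because its binding factors respond to cAMP. It lay in both Entpd1 promoters, in 1 of 2 Adk promoters and in 1 of 4 Pde4b promoters, and 20.8% of 32851 promoters of the same length hold it. The full element, TGACGTCA, which contains the core, was found in none of the 11 and in 1.79% of all. The forkhead motif TGTTTAC was in none and in 3.65% of all. The Runx motif TGTGGTT was in none and in 5.27% of all, and the Ets motif GGAAGT in 1 Pde4b promoter and in 23.8% of all. These are matches of letters only. Capitals mark the core in 30 bases of each Entpd1 promoter and of the Adk promoter, on the plus strand.
Entpd1, chr19:40600663-40600692: agtcgcgtacttCGTCAtcagcttccgtct
Entpd1, chr19:40648019-40648048: gaacacatactaCGTCAagcctagaaaaaa
Adk, chr14:21102618-21102647: gaaagggggcggTGACGagctgaggggcgg

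Pde3b, which encodes a cAMP phosphodiesterase that cGMP inhibits, fell furthest of the 9 once Foxp3 was restored. In resting cells at day 28 it was at 9.78 and 11.8 CPM in plusFoxp3 and at 61.3 and 57.7 CPM in minusFoxp3 libraries, 5.45-fold lower (log2 fold change -2.45, SE 0.35, edgeR adjusted p = 0.00285). In active cells at day 28 it was at 6.63 and 9.9 CPM against 98.3 and 72.5 CPM, 10.3-fold lower (log2 fold change -3.37, SE 0.49, edgeR adjusted p = 0.00103). Both calls held in each of 9 alternative fits, with log2 fold changes from -2.61 to -2.30 in resting and from -3.67 to -3.11 in active cells. In all, 2 of 9 members passed at day 28 in resting cells, where 0.945% of genes did, and 2 of 9 in active cells, where 1.85% did.

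The earlier days gave levels in between. Resting plusFoxp3 cells had Pde3b at 46.1 and 71.1 CPM on day 0, at 32.3 and 39.4 on day 3, at 19 and 32 on day 7 and at 22.8 and 25.7 on day 14. Active plusFoxp3 cells had 73.7 and 113 CPM on day 0, 24.3 and 39.4 on day 3, 36.3 and 26.3 on day 7 and 22 and 18.9 on day 14. MinusFoxp3 libraries stayed between 35.1 and 87.4 CPM in resting and between 35.7 and 101 CPM in active cells over days 0 to 28. Pde3b passed on none of the days before day 28. At day 14 its log2 difference was -1.50 in resting (SE 0.33, edgeR adjusted p = 0.0987) and -2.02 in active cells (SE 0.46, edgeR adjusted p = 0.0564). DESeq2, and edgeR without the count filter, called it there in both states. No member passed at day 3 in resting (0.0487% of genes) or active cells (0.274%), nor in resting cells at day 7 (0.0585%) or day 14 (0.268%). Over the mean of days 3 to 28 Pde3b fell by 1.27 on the log2 scale in resting (SE 0.17, edgeR adjusted p = 0.000246) and by 1.83 in active cells (SE 0.23, edgeR adjusted p = 7.89e-05), in each of 21 alternative fits as well. Between day 3 and day 28 the log2 fold change differed by -2.28 in resting (SE 0.47, edgeR adjusted p = 0.288) and by -2.36 in active cells (SE 0.64, edgeR adjusted p = 0.253), in a comparison chosen after the values were seen. No member passed in it by edgeR, against 0% of genes in resting (1556 with an unadjusted p under 0.05) and 0.0915% in active cells, while DESeq2 called Pde3b in both. Active minusFoxp3 replicate 1 of day 3 was low, at 35.7 CPM against 96.9 CPM in replicate 2.

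**Figure D1:**
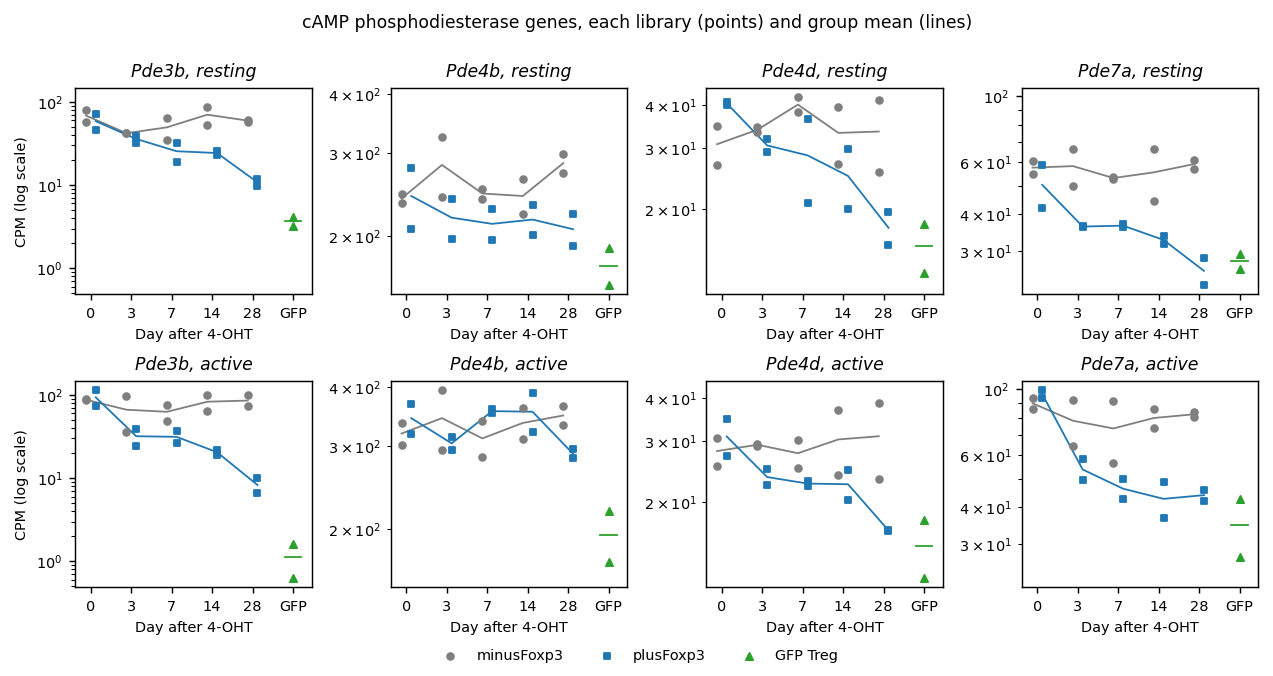
CPM on a log axis of the 4 phosphodiesterase genes by day after 4-OHT in resting (top) and active (bottom) cells, with each library as a point, lines through group means, and GFP Treg cells at the right. Pde3b in plusFoxp3 cells is at 9.78 and 11.8 CPM in resting and 6.63 and 9.9 CPM in active cells at day 28, while minusFoxp3 libraries stay at or above 35.1 CPM.

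GFP Treg cells had the lowest Pde3b of their state. Resting GFP Treg libraries were at 3.23 and 4.15 CPM, 18.4-fold below untreated resting minusFoxp3 cells at 57 and 79.7 CPM (log2 fold change -4.20, SE 0.38, edgeR adjusted p = 1.24e-05). Active GFP Treg libraries were at 0.627 and 1.62 CPM, from 33 and 78 read pairs, 77-fold below untreated active minusFoxp3 cells at 89.3 and 85.6 CPM (log2 fold change -6.27, SE 0.58, edgeR adjusted p = 1.74e-06). Day 28 plusFoxp3 cells were not at this level in the active state, where GFP Treg cells were 7.38-fold lower (log2 fold change -2.88, SE 0.52, edgeR adjusted p = 0.0058). That call was lost without active GFP Treg replicate 1 or when only the compared libraries were fitted. It was the 1 member of 9 that passed there, against 2.01% of genes. In resting cells the same difference was -1.55 on the log2 scale (SE 0.35, edgeR adjusted p = 0.242), and 0 of 9 members passed against 0.0341% of genes. GFP Treg and minusFoxp3 cells come from different mouse lines, so line and Foxp3 history cannot be told apart.

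Pde7a, a cAMP-specific phosphodiesterase known from T cells, went the same way by a smaller step. At day 28 resting plusFoxp3 libraries had 28.5 and 23.1 CPM and minusFoxp3 libraries 61.2 and 57.1 CPM, 2.27-fold lower (log2 fold change -1.18, SE 0.21, edgeR adjusted p = 0.0128). That single-day call was lost without any 1 of the 4 libraries and when only those 4 were fitted (adjusted p up to 0.147). Over the mean of days 3 to 28 Pde7a fell in both states, by 0.77 on the log2 scale in resting (SE 0.11, edgeR adjusted p = 0.000407) and by 0.73 in active cells (SE 0.12, edgeR adjusted p = 0.00122). All 8 resting plusFoxp3 libraries of those days, at 23.1 to 37 CPM, lay below the 8 minusFoxp3 libraries at 44.4 to 66.7 CPM, while in active cells 36.9 to 58.1 and 56.3 to 92.2 CPM overlapped. Pde7a was also lower in GFP Treg than in untreated minusFoxp3 cells, at 42.8 and 27.2 against 85.8 and 93.8 CPM in the active state (log2 fold change -1.33, SE 0.25, edgeR adjusted p = 0.0017). In the resting state it was at 29.5 and 26.2 against 54.6 and 60.4 CPM (log2 fold change -1.03, SE 0.21, edgeR adjusted p = 0.0124), a call lost in 4 of 9 alternative fits.

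Of the 2 phosphodiesterase 4 genes, which encode cAMP-specific enzymes, Pde4d fell over the mean of days 3 to 28 in active cells by 0.45 on the log2 scale (SE 0.13, edgeR adjusted p = 0.0454), from 29.6 to 21.4 CPM, and lost that call without any 1 of 13 libraries. In resting cells its mean difference was -0.47 (edgeR adjusted p = 0.0993). Pde4b, the most abundant of the 4 per kilobase in the reversible-allele and GFP groups, had a mean difference of -0.28 in resting cells (edgeR adjusted p = 0.113). It did not pass on any day in either state. Active GFP Treg cells were lower in both than untreated minusFoxp3 cells. Pde4b was at 170 and 218 against 336 and 302 CPM (log2 fold change -0.69, SE 0.17, edgeR adjusted p = 0.0161), lost in 3 of 9 alternative fits. Pde4d was at 12.1 and 17.8 against 25.5 and 30.7 CPM (log2 fold change -0.89, SE 0.26, edgeR adjusted p = 0.0366), lost in 4 of 9. The long Pde4d locus also holds Rps3a3 on the same strand, so counts of Pde4d are uncertain where the genes overlap.

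Adora2a, the Gs-coupled adenosine receptor, rose with Foxp3 in active cells. At day 28 it was at 37 and 35.9 CPM in active plusFoxp3 and at 13.9 and 11.8 CPM in minusFoxp3 libraries, 2.85-fold higher (log2 fold change 1.51, SE 0.25, edgeR adjusted p = 0.00316). At day 7 it was the only member to pass, at 18.4 and 18.9 against 6.7 and 9.16 CPM (log2 fold change 1.27, SE 0.25, edgeR adjusted p = 0.0297), where 0.568% of genes passed. All 8 active plusFoxp3 libraries of days 3 to 28, at 18.3 to 37 CPM, lay above the 8 minusFoxp3 libraries at 6.7 to 15.2 CPM. Their mean difference was 1.01 on the log2 scale (SE 0.12, edgeR adjusted p = 7.15e-05) and passed in all 21 alternative fits. The day 28 call was lost without active minusFoxp3 replicate 2 (edgeR adjusted p = 0.0619), and the day 7 call without either plusFoxp3 library, without minusFoxp3 replicate 1 of that day, which stood apart, or with only the compared libraries.

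In resting cells Adora2a stood at 24.1 and 16.6 CPM in plusFoxp3 and 16.7 and 18.5 CPM in minusFoxp3 libraries at day 28, which overlap (log2 fold change 0.22, SE 0.35, edgeR adjusted p = 0.935). Set against each other, the day 28 effects in active and resting cells gave a log2 difference of 1.28 for Adora2a (SE 0.44, edgeR adjusted p = 0.551) and of -0.93 for Pde3b (SE 0.59, edgeR adjusted p = 1). No member passed in that test, against 0.0818% of genes, so a difference between states was not shown. GFP Treg cells had the highest Adora2a of their state, at 58.1 and 57.4 CPM in active and 33.4 and 33.8 CPM in resting cells. They were above untreated minusFoxp3 cells in both (log2 fold changes 2.22 and 1.41, edgeR adjusted p = 1.91e-05 and 0.04). The resting call was lost in 4 of 9 alternative fits.

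**Figure D2:**
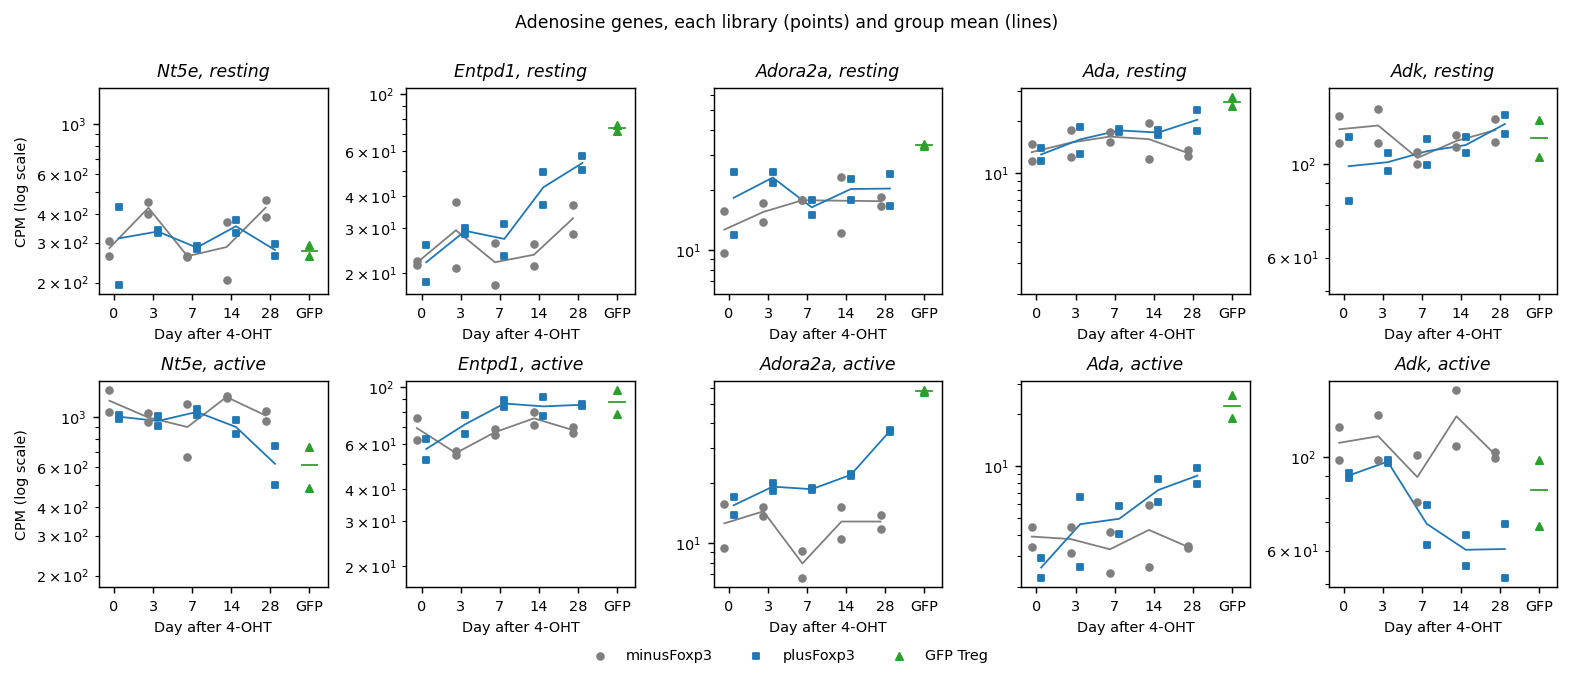
CPM on a log axis of the 5 adenosine genes by day after 4-OHT in resting (top) and active (bottom) cells, with each library as a point, lines through group means, and GFP Treg cells at the right. Adora2a in active plusFoxp3 cells reaches 37 and 35.9 CPM at day 28, above minusFoxp3 cells at 13.9 and 11.8 CPM.

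Of the enzymes that make adenosine, Entpd1 rose modestly with Foxp3. Over the mean of days 3 to 28 it was 1.41-fold higher in resting (log2 fold change 0.50, SE 0.13, edgeR adjusted p = 0.0436) and 1.26-fold higher in active plusFoxp3 cells (log2 fold change 0.34, SE 0.08, edgeR adjusted p = 0.0128). The resting call was lost without any 1 of 11 libraries, and the active one held in all 21 alternative fits. Resting GFP Treg cells were at 71.6 and 75.9 CPM against 21.6 and 22.4 CPM in untreated minusFoxp3 cells (log2 fold change 1.76, SE 0.27, edgeR adjusted p = 0.00148). In active cells the same comparison gave 78.7 and 97.1 against 62.5 and 76 CPM (log2 fold change 0.37, edgeR adjusted p = 0.172).

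Nt5e passed on no day and not over the mean of days 3 to 28. At day 28 it was at 501 and 744 CPM in active plusFoxp3 and at 1067 and 966 CPM in minusFoxp3 libraries (log2 fold change -0.70, SE 0.24, edgeR adjusted p = 0.201). Active GFP Treg cells, at 740 and 487 CPM, were below untreated minusFoxp3 cells at 1052 and 1311 CPM (log2 fold change -0.92, SE 0.24, edgeR adjusted p = 0.0183), a call lost in 3 of 9 alternative fits. In resting cells GFP Treg libraries had 293 and 261 CPM and minusFoxp3 libraries 263 and 305 CPM (log2 fold change -0.02, SE 0.29, edgeR adjusted p = 0.992).

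The enzymes that remove adenosine differed from each other. Ada was higher in active GFP Treg than in untreated minusFoxp3 cells, at 19 and 25.8 against 3.38 and 4.42 CPM (log2 fold change 2.54, SE 0.45, edgeR adjusted p = 0.0012). In the resting state it was at 24.4 and 27.4 against 11.7 and 14.7 CPM (log2 fold change 0.99, SE 0.26, edgeR adjusted p = 0.0493, lost in 5 of 9 alternative fits). Active plusFoxp3 cells at day 28, at 7.9 and 9.68 CPM, lay between the minusFoxp3 libraries at 3.43 and 3.37 CPM and the GFP Treg cells, and passed against neither by edgeR (adjusted p = 0.158 and 0.159), although DESeq2 called both differences. Over the mean of days 3 to 28 Ada rose in active cells by 0.78 on the log2 scale (SE 0.22, edgeR adjusted p = 0.0422), a call lost in 14 of 21 alternative fits. Adk fell in active cells over the mean of days 3 to 28 by 0.56 on the log2 scale (SE 0.10, edgeR adjusted p = 0.00267). At day 14 it was at 65.3 and 55.2 CPM in plusFoxp3 and 144 and 106 CPM in minusFoxp3 libraries (log2 fold change -1.04, SE 0.21, edgeR adjusted p = 0.0267). On that day it was the 1 member that passed, against 0.732% of genes, and lost the call in 3 of 9 alternative fits. In resting cells Adk was at 131 and 118 CPM in plusFoxp3 and 128 and 113 CPM in minusFoxp3 libraries at day 28 (log2 fold change 0.06, edgeR adjusted p = 0.968).

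In counts, 3 of 9 members passed over the mean of days 3 to 28 in resting cells, 1 higher and 2 lower, against 4.73% of genes (2.99% higher, 1.73% lower). In turn 7 of 9 passed in active cells, 3 higher and 4 lower, against 6.22% of genes (3.23% higher, 2.99% lower). GFP Treg cells against untreated minusFoxp3 cells gave 5 of 9 in resting cells, 3 higher and 2 lower, against 2.91% of genes (1.7% higher, 1.21% lower), and 7 of 9 in active cells, 2 higher and 5 lower, against 10% of genes (5.21% higher, 4.79% lower). The median log2 fold change of the members was -0.11 and -0.22 over the mean of days and -0.05 and -0.69 for GFP Treg cells, with -0.02, 0, -0.01 and 0 over all genes tested. These comparisons share minusFoxp3 or plusFoxp3 libraries within a state and are not independent. The members were chosen with earlier results of these data known, so counts of members beside the share of all genes do not test the list. At day 0, before any Foxp3 was restored, 0 of 9 members passed in either state (0.00487% and 0.00481% of genes), and the same holds for minusFoxp3 cells of day 28 against day 0 (0% of genes in both states). With 0 genes called by edgeR there, 752 genes in resting and 549 in active cells had an unadjusted p under 0.05, and DESeq2 called 6 and 0 genes, with no member among them.

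**Figure D3:**
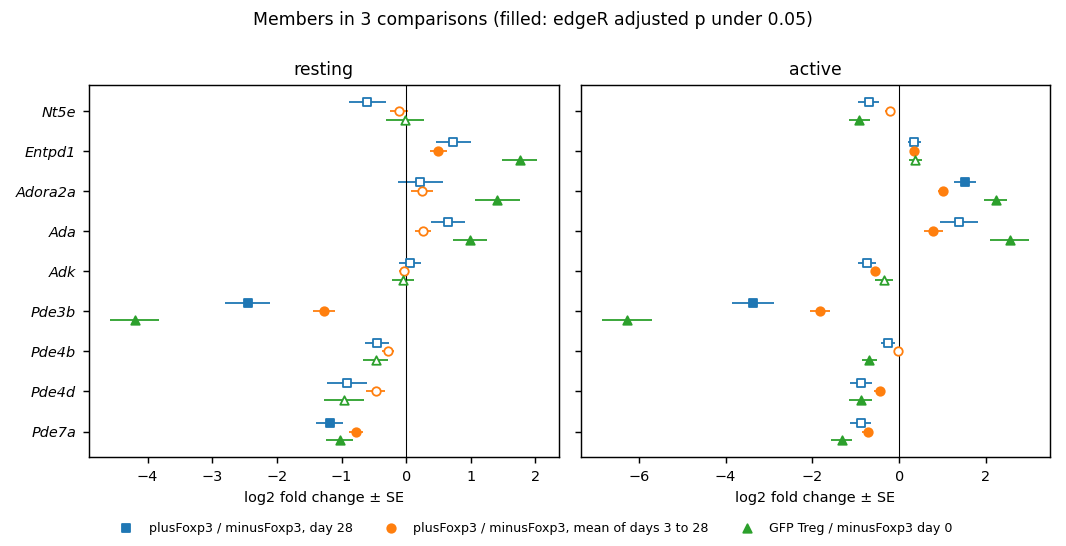
Log2 fold change ± SE of the 9 members in resting (left) and active (right) cells for plusFoxp3 against minusFoxp3 at day 28, the mean of days 3 to 28, and GFP Treg against untreated minusFoxp3 cells, with filled symbols for an edgeR adjusted p under 0.05. Pde3b lies furthest left in every comparison shown, at -2.45 and -3.37 on day 28.

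Markers of the cell state moved alongside. The summed level of 5 active-state genes (Cd44, Icos, Klrg1, Prdm1 and Itgae, of which Klrg1 was at 0 in thymic libraries) was 1848 to 2062 CPM in active plusFoxp3 against 1036 to 1037 CPM in minusFoxp3 cells at day 28, and 398 to 800 against 259 to 315 CPM in resting cells. It was 1943 to 2386 CPM in active and 847 to 884 CPM in resting GFP Treg cells, against 1098 to 1446 and 203 to 320 CPM in untreated minusFoxp3 cells. The summed level of 6 B cell markers (Cd79a, Cd79b, Ms4a1, Pax5, Ebf1 and Fcmr) was 30.9 to 53.5 against 20 to 20.8 CPM in active cells and 38.5 to 44.5 against 22.3 to 30.9 CPM in resting cells at day 28. In GFP Treg against untreated minusFoxp3 cells it was 93.2 to 100 against 15.4 to 27.7 CPM in active and 57.1 to 70.4 against 23.5 to 25.7 CPM in resting cells, with none of the 6 at 0 in all libraries of these groups. The summed level of 7 myeloid markers was 238 to 248 against 183 to 218 CPM in active cells and 107 to 148 against 89.1 to 104 CPM in resting cells at day 28, with Adgre1 at 0 in both resting plusFoxp3 libraries. In GFP Treg against untreated minusFoxp3 cells it was lower in the active state, at 124 to 159 against 211 to 275 CPM, and overlapped in the resting state, at 128 to 142 against 105 to 139 CPM. The summed level of Ccr7, Tcf7 and Lef1, genes of resting T cells, was lower in plusFoxp3 cells at day 28, at 603 to 821 against 1467 to 1478 CPM in active and 1792 to 1948 against 3416 to 3707 CPM in resting cells. GFP Treg cells were also lower in it than untreated minusFoxp3 cells, at 745 to 880 against 978 to 1220 CPM in active and 1402 to 1441 against 2928 to 3406 CPM in resting cells. The study places Tcf7 among the genes it calls Foxp3-repressed, so Foxp3 and cell state cannot be told apart in that sum. The part of these genes and cells in the members' results was not tested.

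Without Foxp3, active and resting cells differed in Nt5e, Entpd1 and Ada. Active against resting minusFoxp3 cells of day 0 gave 3 of 9 members, against 13.4% of genes. Nt5e was at 1052 and 1311 against 263 and 305 CPM (log2 fold change 2.05, SE 0.28, edgeR adjusted p = 6.92e-06). Entpd1 was at 62.5 and 76 against 21.6 and 22.4 CPM (log2 fold change 1.65, SE 0.22, edgeR adjusted p = 5.53e-06), and Ada was at 3.38 and 4.42 against 11.7 and 14.7 CPM (log2 fold change -1.76, SE 0.37, edgeR adjusted p = 0.00126). Active cells thus had more RNA for both adenosine-producing enzymes and less for the deaminase. Pde3b was at 89.3 and 85.6 against 57 and 79.7 CPM there and did not pass (log2 fold change 0.35, SE 0.41, edgeR adjusted p = 0.681). Between active and resting GFP Treg cells 2 of 9 members passed, against 3.12% of genes, with Nt5e higher (log2 fold change 1.13, SE 0.27, edgeR adjusted p = 0.0194) and Pde3b lower (log2 fold change -1.74, SE 0.48, edgeR adjusted p = 0.0409). The Pde3b call was lost with RLE size factors and without any of 3 of the 4 libraries.

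Degradation of Foxp3 for 7 days moved no member past the threshold. In thymic TIR1 against WT cells 0 of 9 passed, and in active cells 0 of 9, where edgeR called 0% of genes in each, 1050 and 672 genes had an unadjusted p under 0.05, and DESeq2 called 156 and 21 genes. Pde3b came closest in the thymus, at 127, 119 and 119 CPM in TIR1 and 77.4, 98.8 and 78.7 CPM in WT libraries (log2 fold change 0.51, SE 0.13, edgeR adjusted p = 0.479). DESeq2 called it there (DESeq2 adjusted p = 0.0344). In active cells Pde3b was at 45, 34.5 and 48.5 against 30.2, 34.4 and 54.1 CPM, which overlap (log2 fold change 0.08, SE 0.27, edgeR adjusted p = 1). Adk was at 83.4, 87.9 and 90.2 CPM in thymic TIR1 and 104, 97.5 and 125 CPM in thymic WT libraries (log2 fold change -0.32, SE 0.12, edgeR adjusted p = 0.645). In active cells it was at 199, 175 and 196 CPM in TIR1 and 142, 133 and 151 CPM in WT libraries (log2 fold change 0.39, SE 0.14, edgeR adjusted p = 1). The signs were opposite, and neither difference passed. Pde7a in active cells was at 57.3 to 74 CPM in TIR1 and 42.4 to 54 CPM in WT libraries (edgeR adjusted p = 1), and Entpd1 at 39.7 to 51.8 against 56 to 63.6 CPM (edgeR adjusted p = 1). Ccr7, Tcf7 and Lef1 summed to 2000 to 2433 CPM in active TIR1 and 1601 to 1784 CPM in active WT libraries, and their part was not tested. The degradation effect did not pass as different between thymic and active cells for any member by edgeR (0% of genes, 984 with an unadjusted p under 0.05), and DESeq2 called Adk in this comparison, which was also chosen after the values were seen (edgeR log2 difference -0.71, SE 0.17, edgeR adjusted p = 0.569, DESeq2 adjusted p = 0.0215). Entpd1 was near the floor in the thymus, with 1 TIR1 library at 0 read pairs, which allows up to 0.0882 CPM from 3 counts by counting error alone.

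**Figure D4:**
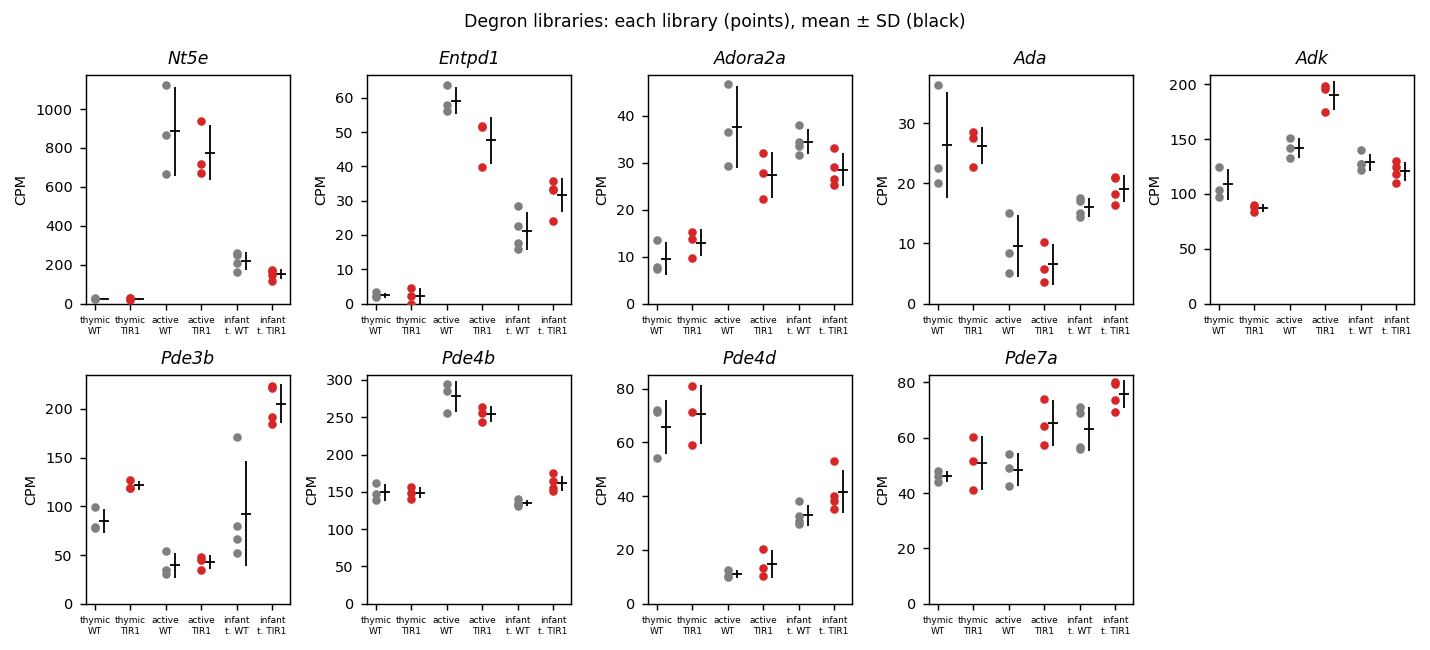
CPM of the 9 members in the 20 degron libraries on linear axes from 0, with each library as a point (grey WT or titled WT, red TIR1 or titled TIR1) and the mean ± SD beside it. Pde3b in thymic TIR1 libraries sits at 119 to 127 CPM above WT libraries at 77.4 to 98.8 CPM, and infant titled WT replicate 4 sits at 171 CPM among others at 51.7 to 80 CPM.

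In infants 0 of 9 members passed, against 0.0185% of genes. Pde3b was at 223, 221, 192 and 184 CPM in libraries titled TIR1 and at 80, 51.7, 66.3 and 171 CPM in those titled WT (log2 fold change 1.17, SE 0.34, edgeR adjusted p = 0.147). Replicate 4 of titled WT was nearest to the other group. DESeq2 on all 8 libraries called Pde3b, Pde4b, Entpd1 and Nt5e, among 1108 genes in all, where edgeR called 3 genes. The 5 active-state genes summed to 543 to 744 CPM in titled TIR1 and 193 to 585 CPM in titled WT libraries, where 585 CPM was replicate 4 and the other 3 were at 193 to 250 CPM. Without replicate 4 these sums did not overlap between the groups, and their part in the members' calls was not tested. The fit without replicate 4 is given because that library stood apart, a choice made after the values were seen. In it 5 of 9 members passed, 4 higher and 1 lower in titled TIR1, against 11% of genes (6.55% higher, 4.44% lower). Pde3b was then 3.15-fold higher in titled TIR1 (log2 fold change 1.65, SE 0.13, edgeR adjusted p = 2.25e-05). Entpd1, at 24.2 to 35.6 against 15.9 to 22.6 CPM, was 1.71-fold higher (edgeR adjusted p = 0.00743), Pde4b 1.21-fold higher (edgeR adjusted p = 0.0452) and Pde7a 1.27-fold higher (edgeR adjusted p = 0.0369). Nt5e, at 117 to 174 against 207 to 259 CPM, was lower (log2 fold change -0.64, edgeR adjusted p = 0.006).

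Thymic and active WT Treg cells differed in 8 of 9 members, against 23% of genes. The 8 include Nt5e, whose product CD73 was the gate of the thymic sort, so its call is not read as a result. Thymic cells had more Pde4d, at 54.3, 71.3 and 72 against 9.94, 12.6 and 10.3 CPM (log2 fold change 2.49, SE 0.26, edgeR adjusted p = 2.28e-05). They had more Pde3b, at 77.4, 98.8 and 78.7 against 30.2, 34.4 and 54.1 CPM (log2 fold change 1.01, SE 0.22, edgeR adjusted p = 0.00478), and more Ada, at 20, 36.4 and 22.5 against 15.1, 8.39 and 5.01 CPM (log2 fold change 1.37, SE 0.45, edgeR adjusted p = 0.0465, lost in 5 of 11 alternative fits). They had less Entpd1, at 2.06, 3.31 and 1.93 against 57.9, 56 and 63.6 CPM (log2 fold change -4.69, SE 0.88, edgeR adjusted p = 0.0021). They also had less Adora2a, at 7.7, 7.29 and 13.6 against 29.3, 36.6 and 46.7 CPM (log2 fold change -2.07, SE 0.31, edgeR adjusted p = 0.000373). Pde4b was at 139 to 162 against 255 to 294 CPM (log2 fold change -0.99, SE 0.10, edgeR adjusted p = 2.11e-05). Adk was at 97.5 to 125 against 133 to 151 CPM (log2 fold change -0.48, SE 0.12, edgeR adjusted p = 0.0114), lost without thymic WT replicate 2. Pde7a did not pass, at 44 to 48.1 against 42.4 to 54 CPM (edgeR adjusted p = 0.545). Nt5e, at 21.9 to 26.3 against 665 to 1122 CPM, encodes the CD73 by which the thymic cells were sorted as negative, so gate and tissue cannot be told apart for it. The 5 active-state genes summed to 225 to 283 CPM in thymic WT and 1596 to 1796 CPM in active WT cells, and Ccr7, Tcf7 and Lef1 to 4330 to 4767 and 1601 to 1784 CPM, so tissue, maturity and state cannot be told apart. Cd44 is among the 5 active-state genes, and the active cells were sorted as CD44-high, so gate and state cannot be told apart for it. Markers of other cells moved as well. The summed level of 6 CD8 T and NK cell markers was 58.7 to 68 CPM in thymic and 18.4 to 21.9 CPM in active WT cells. That of 5 markers of double-positive thymocytes was 5.19 to 14.2 against 0 to 1.15 CPM, with Rag1, Rag2 and Ptcra at 0 in every thymic WT library. B cell markers were lower in thymic cells, at 13.3 to 20.9 against 32.3 to 57.9 CPM, and so were myeloid markers, at 120 to 172 against 207 to 311 CPM. Pax5, Csf1r, Adgre1 and Klrb1c were at 0 in every thymic WT library, and Ms4a1, Adgre1, Cd8a, Ncr1, Rag1 and Rag2 in every active WT library. The part of these cells in the members' differences was not tested.

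Of 110 other genes of the pathway, in 12 lists of transporters, receptors, cyclases, kinase subunits, targets and other roles, 94 were tested in resting and 98 in active cells. Over the mean of days 3 to 28, 4 rose and 2 fell in resting cells (4.73% of all genes passed), and 7 rose and 4 fell in active cells (6.22%), with median log2 fold changes of -0.05 and 0. At day 28, 0 rose and 1 fell in resting cells (0.945%), and 2 rose and 1 fell in active cells (1.85%). GFP Treg against untreated minusFoxp3 cells gave 1 higher and 2 lower in resting (2.91%) and 6 higher and 8 lower in active cells (10%). The counts of the lists were not tested against those of all genes, and nothing particular to the lists is read from them. In the degron contrasts 0 of 80 passed in thymic, 0 of 77 in active and 0 of 85 in infant cells. The infant count rests on titled WT replicate 4, and leaving it out was a choice made after the values were seen. Without it 18 of 85 passed, 8 higher and 10 lower in titled TIR1, against 11% of genes, with a median log2 fold change of -0.03. Higher were Gnai1, a Gi subunit (log2 fold change 4.83, edgeR adjusted p = 0.00269), the costimulatory receptor gene Icos (1.82, edgeR adjusted p = 1.97e-05) and Areg, an epidermal growth factor receptor ligand (1.69, edgeR adjusted p = 0.0255). Lower were Cd38, an NAD-consuming ecto-enzyme (-2.59, edgeR adjusted p = 3.36e-05), the nuclear receptor gene Nr4a2 (-1.17, edgeR adjusted p = 0.0379) and Ampd1, an AMP deaminase (-1.17, edgeR adjusted p = 0.00118). Over the mean of days 3 to 28 in resting cells those that rose included Slc29a4, a nucleoside and monoamine transporter (log2 fold change 2.16, edgeR adjusted p = 0.0216). Prkar1b, a regulatory subunit of protein kinase A (1.70, edgeR adjusted p = 0.0118), and Ampd1 (1.24, edgeR adjusted p = 0.000323), rose as well. Vipr1, a Gs-coupled receptor for vasoactive intestinal peptide, fell there by 1.22 on the log2 scale (edgeR adjusted p = 0.000124), and Ptger2, a Gs-coupled prostaglandin E2 receptor, by 0.61 (edgeR adjusted p = 0.000184). In active cells Slc29a4 (2.16, edgeR adjusted p = 0.0198), Prkar1b (2.13, edgeR adjusted p = 0.03) and Pde2a, a cGMP-stimulated phosphodiesterase (1.36, edgeR adjusted p = 0.000513), rose on the log2 scale. The purinergic receptor gene P2ry1 (-1.61, edgeR adjusted p = 0.0269), Pkib, an inhibitor of protein kinase A (-1.36, edgeR adjusted p = 0.0243), and Dpp4, which encodes CD26 (-0.55, edgeR adjusted p = 0.00268), fell. Several of these were rare, with Prkar1b at a mean of 0.525 CPM, Slc29a4 at 1.34, Pkib at 1.71 and Pde2a at 1.89 CPM in active plusFoxp3 cells. Prkar1b was at 0.136 CPM in the active minusFoxp3 cells, and Slc29a4 was at 1.01 CPM in resting plusFoxp3 cells.

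Over the 22 reversible-allele and GFP groups, Pde3b and Adora2a ran opposite to each other (Pearson r = -0.89 across 22 group means), as did Ada and Nt5e (r = -0.89), while Pde3b and Pde4d ran together (r = 0.86). The points share libraries for both genes, and resting and active groups are pooled, so these values are descriptive. The genes most like Pde3b in this measure, of 12399 compared, were Rnf144a (r = 0.96), Itgb3 (r = 0.95) and Tgfbr3 (r = 0.94). The nearest to Adora2a were Gm49396 (r = 0.95), Bmp7 (r = 0.94) and Rgs3 (r = 0.93), and the nearest to Pde7a were Syne2 and Lpar3 (both r = 0.95) and Shld1 (r = 0.94). Those nearest to Entpd1 were Fuca2 (r = 0.97), Mrgpre and Fgl2 (both r = 0.96), and those nearest to Nt5e were Cpd and Agfg1 (both r = 0.98) and Zfp523 (r = 0.97).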

How the data were processed

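The authors deposited whole read-pair counts for each gene name of GENCODE vM30, made with featureCounts v2.0.3 without strand on GRCm39. STAR is named as aligner in the methods and Bowtie2 in the submitters' processing notes. Headers of the 20 degron libraries show a mapping quality of at least 30 and the other 44 none, so tests stay within a setting. Samples were grouped by their labels, and each adult degron file went to the sample whose library name its header holds.

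TMM-normalised counts were tested with the quasi-likelihood test of edgeR 4.0.16 (R 4.3.3, robust) on genes with a mean count of at least 10, with Benjamini-Hochberg adjustment over all genes tested and a threshold of 0.05. TIR1 against WT was fitted on the libraries compared, thymic against active WT on the 12 adult degron libraries, reversible-allele contrasts on the 22 of a state, and contrasts between states on all 44. SE is the fold change over the root of F. CPM uses library totals. Alternatives were RLE factors, DESeq2 1.42.0, edgeR without the count filter or with a replicate block, a fit to the compared libraries alone, the recorded assignment of files, and leaving out each library. Scripts were tested on simulated data.

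Named genes are the 9 members, Foxp3, up to 3 pathway genes per direction with the largest called change, the 3 genes most like a member (log2 CPM, prior count 2, mean count of at least 100), and markers that moved with a result. Members and lists were chosen with earlier results of these data known. The study describes its adult degron and reversible-allele libraries as independent biological replicates. The origin of infant and GFP replicates is not given in the sources used here, so their p-values measure the spread between these samples. Replicates differed by more than sampling noise (chi-square per degree of freedom at least 17.3 over 46 pairs). Some marker genes are not reported here and are left out of the sums, and the sum of Ccr7, Tcf7 and Lef1 was chosen after the data were seen.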

Additional observations from a re-analysis of the deposited data

How the results depend on the processing

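Counts of the 9 members past the threshold depended on the fit, and no called member changed sign in any alternative. The recorded assignment turns round every adult sign between TIR1 and WT, and edgeR called 0 members there with either assignment. DESeq2, which called Pde3b in thymic degradation, was run on the header assignment only. With DESeq2 the count went from 0 to 1 in thymic degradation, the thymic to active difference of degradation, resting day 14, resting GFP Treg against day 28, and the change from day 3 to day 28 in both states; from 0 to 4 in infants; from 1 to 3 at active day 14; from 2 to 6 at active day 28; and from 1 to 2 for active GFP Treg against day 28. Without the count filter it was 1 at resting day 7, 2 at resting day 14, 1 for resting GFP Treg against day 28, 1 at active day 3, 2 at active day 7, 3 at active day 14, 7 at active day 28, 2 for active GFP Treg against day 28, and 1 for the change in each state. With only the compared libraries it was 1 at resting day 28, 2 for resting GFP Treg against day 0, 0 at active day 7, 2 at active day 14, 4 for active GFP Treg against day 0 and 0 against day 28. RLE factors gave 1 in place of 2 for active against resting GFP Treg. Counts over all genes moved too. By edgeR, DESeq2 and edgeR without the count filter, 3, 1108 and 149 genes passed in infants. At resting day 7 it was 12, 147 and 493, at active day 28 385, 793 and 1174, and for thymic against active WT 3404, 4226 and 2996. The compared libraries alone gave 289 in place of 597 for resting GFP Treg against day 0, and 191 in place of 152 at active day 14. Nothing particular to the members is read from these counts. The cause was not tested.

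Same-numbered samples deviated together with correlations of -0.123 to 0.224, and in designs with 3 or more pairs of -0.077 to 0.0397. The numbers were not taken as pairing. Among the highest were active against resting minusFoxp3 cells (0.224) and GFP Treg cells (0.188), beside active minusFoxp3 day 28 against day 0 (0.206). Whether resting and active cells came from the same mice is not given in the sources used here, so pairing between states was not settled. With a replicate block 1 member passed at resting day 14, 5 over the mean of days in resting cells, 1 for resting GFP Treg against day 28, 2 at active day 14 and 5 for active against resting minusFoxp3 cells, and no other count moved by over 1.5 times.

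Leaving out 1 library at a time gave 0 to 5 members in infants, 6 to 8 for thymic against active WT, 0 to 1 at resting day 0, 1 at resting day 28, 2 to 4 over the mean of days in resting cells, 2 to 3 for resting GFP Treg against day 0, 0 to 1 at active days 7 and 14, 1 to 2 at active day 28, 5 to 7 over the mean of days in active cells, 5 to 6 for active GFP Treg against day 0, 0 to 1 against day 28, and 0 to 2 for active against resting GFP Treg. The 1 at resting day 0 was Adk without plusFoxp3 replicate 2, where 2096 genes passed. An arm left with 1 library is assumed to vary like the others. Over all genes, leaving out 1 library gave 1 to 1774 in infants and 2718 to 3638 for thymic against active WT. The thinnest values were Entpd1 in thymic TIR1 cells, from 148, 0 and 66 read pairs, and Pde3b in active GFP Treg cells, from 33 and 78, which limits the precision of their fold changes.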
